A study of Drosophila melanogaster with 2 samples.

Results

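Channels that carry sodium, calcium, the hyperpolarization-activated current and the leak current were represented by 8 Drosophila melanogaster genes: para, NaCP60E, tipE, cac, Ca-alpha1D, Ca-alpha1T, na and Ih. They were chosen by gene family, with earlier results of these data known, and their peaks by position. A peak counted for a gene when its summit lay between 5 kb upstream of the gene's start and the gene's end, taking strand into account. Of the 18277 annotated genes, these 8 took up 355.4 kb of such regions. They held 41 of the 30000 pooled candidate peaks, 3 of the 2241 optimal peaks, 45 of the 30000 candidates of replicate 1 and 43 of the 30000 candidates of replicate 2. The data came from anti-GFP ChIP-seq on whole embryos of 0 to 24 hours, male and female pooled, of a transgenic line that stably expresses tup, an Islet-type LIM-homeodomain factor, fused at its C terminus to GFP. Both replicates belong to that 1 group and carry the same transgene. They have separate biosample records of 1 line, and with no second condition there was no contrast to test. A label field names tup as the antibody target, while the description gives an anti-GFP antibody, and the promoter that drives the fusion is not given in the labels. Whole embryos mix all cell types, so binding in few cells and weak binding in many cannot be told apart.

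The voltage-gated sodium and calcium channels are large pore-forming proteins that give neurons and muscles their electrical signals. In the fly, para encodes the sodium channel of the action potential, and tipE encodes an auxiliary subunit that raises its current. NaCP60E, also called DSC1, encodes a cation channel related to it in sequence. The gene cac encodes the presynaptic calcium channel that triggers transmitter release, Ca-alpha1D an L-type channel of muscle and neuronal dendrites, and Ca-alpha1T a low-voltage-activated T-type channel. The product of na, narrow abdomen, is the fly NALCN leak channel that sets resting excitability in clock neurons, and Ih encodes the fly HCN channel, which opens on hyperpolarization. The Islet factor tup acts in the embryo in motor neurons, heart and dorsal epidermis.

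Sequences around the summits are given for a selection of the channel peaks discussed below, all of them outside untranslated regions. Each is the 101 bp centred on the pooled summit, 5′ to 3′ on the plus strand of dm6, from the RefSeq copy of the assembly. Capitals mark TAAT or its reverse complement ATTA, the core bound by homeodomains, searched on both strands with overlaps counted. The set was selected to show the optimal peak upstream of Ca-alpha1T, the strongest candidate of the tipE region, the pooled candidate nearest to the start of na, and the single pooled candidates of cac and Ca-alpha1D.
Ca-alpha1T, upstream of the gene, chrX:6193340-6193440: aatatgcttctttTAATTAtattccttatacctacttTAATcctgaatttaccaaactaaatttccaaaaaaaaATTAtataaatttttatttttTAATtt
tipE region, intron of Teh2, chr3L:4185295-4185395: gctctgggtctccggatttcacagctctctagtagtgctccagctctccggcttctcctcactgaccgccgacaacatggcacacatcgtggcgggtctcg
cac, intron, chrX:11939608-11939708: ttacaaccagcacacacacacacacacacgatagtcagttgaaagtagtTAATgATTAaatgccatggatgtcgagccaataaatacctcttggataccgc
Ca-alpha1D, intron, chr2L:16168819-16168919: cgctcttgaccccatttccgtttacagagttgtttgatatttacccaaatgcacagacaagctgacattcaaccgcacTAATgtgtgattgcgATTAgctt
na, intron, chrX:14267279-14267379: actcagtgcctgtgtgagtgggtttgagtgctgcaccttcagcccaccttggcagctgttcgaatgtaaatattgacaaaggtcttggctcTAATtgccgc
The Ca-alpha1T window held 5 such cores, the tipE window 0, the cac and Ca-alpha1D windows 2 each and the na window 1. Over all pooled candidates 4.74% of windows held 5 or more and 34.7% held 2 or more. Over the optimal peaks 8.61% held 5 or more. The core is made of A and T alone, and these shares were not matched for base composition. They therefore do not show whether 5 cores are many for a window as AT-rich as that of Ca-alpha1T. The windows of the NaCP60E and Ih optimal peaks are not shown, and their cores are counted below. The GC content of the Ca-alpha1T window was 15.8%, a value reached or undercut by 0.323% of all pooled candidates. The tipE window had a GC content of 60.4%, and 6.08% of pooled candidates were at or above it.

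The lists differ in what a peak in them means. Candidate lists hold peaks together with background, as the deposited file lists name them, while the optimal list was thresholded by the authors on reproducibility. The 2241 optimal peaks were the 2241 strongest of the pooled list, with a signal of 68.7 or more, against a median of 27.3 over all pooled candidates. The signal is the caller's value as deposited by the authors, and it was compared within a list only. Across lists, the rank of a peak by signal is given, with 1 as the strongest, and a pooled candidate counts as found or matched in a replicate when a summit of that replicate lies within 100 bp.

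Optimal peaks were found at 3 of the 8 channel genes, NaCP60E, Ca-alpha1T and Ih, with 1 peak each. The other 5, para, tipE, cac, Ca-alpha1D and na, had none. Over all genes, 20.6% had an optimal summit in their region. Most channel genes are long, and long regions hold peaks more often: the share was 39.8% among the 1828 genes with the longest regions (16.2 kb and more, the top 1 of 10 equal bins of length), which includes para, NaCP60E, cac, Ca-alpha1D, Ca-alpha1T and Ih. It was 28.8% in the next bin (9.9 to 16.2 kb), which includes tipE and na. Per length, the channel regions held 0.844 optimal summits per 100 kb, against 1.67 over the chromosome arms without Y. With 3 peaks, these shares carry little precision.

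**Figure D1:**
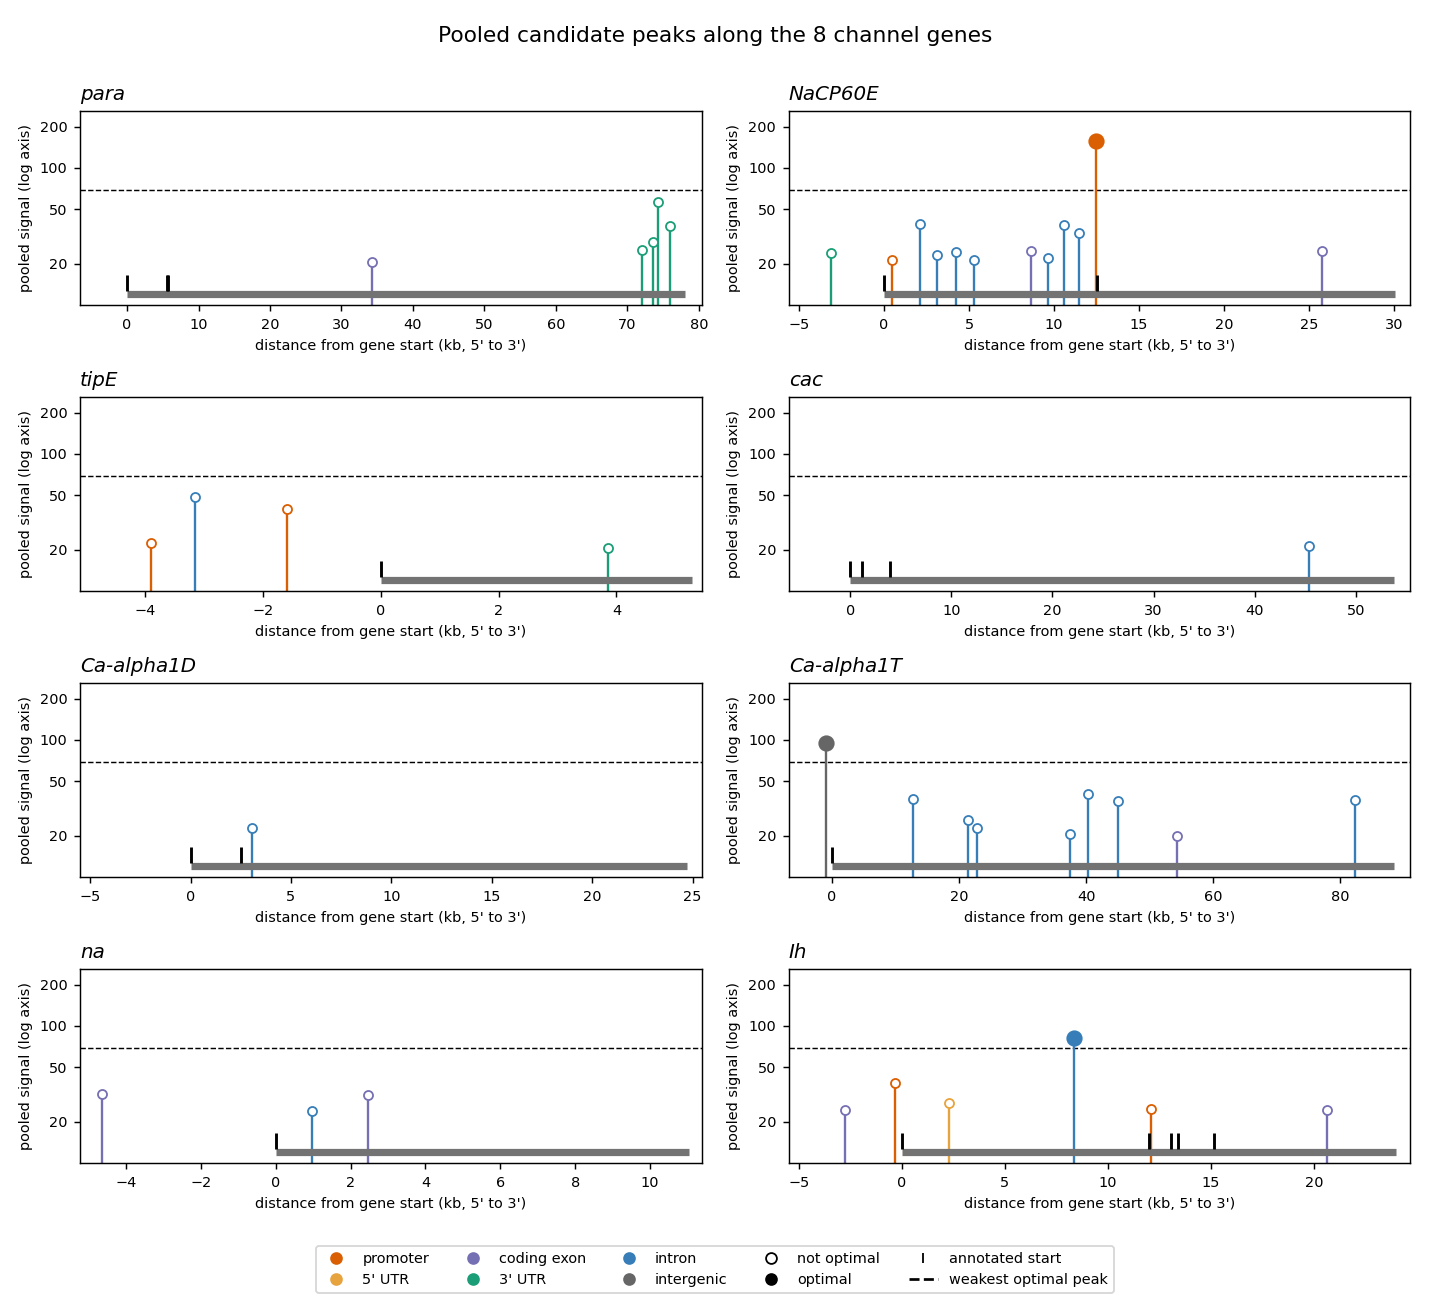
Pooled candidate peaks along each channel gene, with distance from the gene's start in kb on the horizontal axis and pooled signal on a logarithmic vertical axis. Filled circles are the 3 optimal peaks, open circles the other 38 candidates, colours give the annotation at the summit, grey bars the gene, black ticks its annotated transcript starts and the dashed line the weakest optimal signal of 68.7. The filled circles stand at an internal start of NaCP60E, upstream of Ca-alpha1T and in an intron of Ih, and the para candidates crowd at the gene's 3′ end.

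The sodium channel group differed from gene to gene. NaCP60E (2R 24891614 to 24921677, plus strand) carried the strongest peak of all 8 genes, at 24903866 to 24904249, with a pooled signal of 158 and rank 488. Its summit lay within the gene's body, 59 bp upstream of the second of its 2 annotated starts and 12.4 kb from the first. The ribosomal protein gene RpL41, nested in NaCP60E on the opposite strand, starts close by, and the summit lay 123 bp upstream of it. The peak thus stood between 2 divergent starts, of which the ribosomal one belongs to another gene. In replicate 1 the candidate there had a signal of 72.8 (rank 930) with a summit 38 bp upstream of the NaCP60E start. In replicate 2 it had a signal of 72.8 on that list's own scale (rank 337). The summit there lay 108 bp upstream of the NaCP60E start and nearer to the RpL41 start, 74 bp upstream of it. A further replicate 2 candidate of rank 1308 lay 93 bp downstream of the NaCP60E start and had no pooled counterpart within 100 bp.

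The remaining 11 pooled candidates of NaCP60E were weak, with ranks from 6334 to 26322. The strongest of them lay in introns, at 24893553 to 24893936 (signal 39.1), 24902001 to 24902384 (signal 38.3) and 24902878 to 24903261 (signal 33.4). The first was matched in both replicates (rank 5868 in replicate 1, rank 3026 in replicate 2), the second in replicate 1 alone (rank 5917) and the third in replicate 2 alone (rank 6245). The third was 865 bp downstream of the RpL41 start, and the second was nearest to the start of Tpc2, another gene nested in NaCP60E. At the first annotated start of NaCP60E there was a candidate 487 bp downstream, of rank 25738.

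The main sodium channel gene para (X 16455027 to 16533096, minus strand) had 5 pooled candidates and no optimal peak. Of these, 4 lay in its 3′ untranslated region, 72.1 to 75.9 kb from the gene's start, and 1 lay in a coding exon. The strongest, at 16458553 to 16458936, had a signal of 56.0 and rank 3179, the highest rank among the channel candidates that were not optimal. In replicate 1 it had rank 2005, among that replicate's 2241 strongest, and no candidate of replicate 2 lay within 100 bp. The next were at 16456958 to 16457341 (signal 37.7, rank 13927 in replicate 1) and 16459282 to 16459665 (signal 29.1, rank 5468 in replicate 1), again without a replicate 2 match. The 3 annotated starts of para, shared by 60 transcripts, lay 7971 to 13653 bp from the nearest pooled summit. Replicate 2 had a candidate 137 bp upstream of the first start, of rank 29573 among 30000. No pooled summit fell in a stretch of 39.2 kb that includes all 3 starts.

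The auxiliary subunit gene tipE (3L 4188499 to 4193788, plus strand) lies beside its relatives Teh2 and Teh3, and 3 of its 4 pooled candidates were upstream, within those genes. The strongest, at 4185153 to 4185536 (signal 48.2, rank 4147), was intronic in Teh2 and 682 bp upstream of the Teh3 start, and the ranks were 8455 in replicate 1 and 2854 in replicate 2. A candidate at 4186710 to 4187093 (signal 39.4) lay 37 bp upstream of the start of VhaM9.7-c, a gene of the proton-pumping V-ATPase, with rank 10493 in replicate 1 and rank 6931 in replicate 2. The third, at 4184409 to 4184792 (signal 22.5), lay 62 bp downstream of the Teh3 start and was matched in replicate 2 alone. The start of tipE itself was 1597 bp from the nearest pooled summit, and the promoter candidates of the tipE region were at other genes' starts.

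Among the calcium channel genes, Ca-alpha1T alone had an optimal peak, and cac and Ca-alpha1D had 1 pooled candidate each. The Ca-alpha1T peak (X 6193198 to 6193581) had a pooled signal of 95.2 and rank 1280. It was intergenic, 907 bp upstream of the gene's single annotated start (gene at 6104085 to 6192483, minus strand), and no other gene's region held its summit. The replicates differed in rank there. In replicate 1 the candidate had a signal of 86.3 and rank 682, and in replicate 2 it had a signal of 7.96 and rank 29033 of 30000, with a summit 62 bp away. Among the 2082 optimal peaks with a replicate 2 candidate within 100 bp, 3 had a replicate 2 rank as low as this or lower, Ca-alpha1T included, while the median rank was 1116. A further 159 optimal peaks had no replicate 2 summit within 100 bp. Its sequence, given above, is the most AT-rich of the 41 channel candidates. Whether base composition has a part in the difference between replicates was not tested.

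The gene body of Ca-alpha1T held 8 weaker candidates, 7 in introns and 1 in a coding exon. The highest were at 6151966 to 6152349 (signal 40.1), 6179448 to 6179831 (signal 37.1) and 6109927 to 6110310 (signal 36.3), which lie 40.3, 12.8 and 82.4 kb from the gene's start. The first was found in replicate 1 (rank 3559) and not in replicate 2. The second had ranks 6236 and 20931, and the third ranks 14007 and 14247, in replicates 1 and 2. Of the 41 channel candidates 10 (24.4%) were matched in both replicates, against 24.5% over all pooled candidates. The Ca-alpha1T region held 9 of the 41 and 4 of the 10, its optimal peak included.

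The region of cac (gene at X 11931280 to 11985087, minus strand) spans 58.8 kb and held 1 pooled candidate, at 11939466 to 11939849 in an intron, with signal 21.4 and rank 25754. Replicate 1 had the same candidate at rank 18630, and replicate 2 had no candidate in the region. A stretch of 50.4 kb, which includes all 3 annotated starts, was free of pooled summits, and the starts were 15525 to 19436 bp from the nearest one. For Ca-alpha1D (gene at 2L 16165831 to 16190540, plus strand) the single pooled candidate, at 16168677 to 16169060, had signal 22.7 and rank 22785, and lay in an intron 523 bp downstream of the second annotated start. Replicate 1 had 4 candidates in the region, the best at rank 13557, and replicate 2 had 2, the best at rank 15196. None of these lay within 100 bp of one in the other replicate.

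The leak channel gene na (X 14266367 to 14277416, plus strand) had 3 pooled candidates of ranks 10387 to 20080. The strongest, at 14261542 to 14261925 (signal 31.8), lay 4633 bp upstream of na in a coding exon of Tat, 511 bp from the Tat start, and was matched in both replicates (ranks 16165 and 10272). The next, at 14268650 to 14269033 (signal 31.5, rank 7709 in replicate 1), was in a coding exon of na. The third, at 14267137 to 14267520 (signal 24.0, rank 11184 in replicate 1), was intronic, 962 bp downstream of the start. Neither of the last 2 was matched in replicate 2. Replicate 2 had a candidate 237 bp upstream of the na start, of rank 20839, which was not matched in the pooled list. It was closer to the start of CG13404, 120 bp downstream of it.

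Ih (2R 14276130 to 14300095, plus strand) carried the third optimal peak, at 14284296 to 14284679, with signal 81.7 and rank 1666. It lay in an intron, 8.4 kb downstream of the gene's start and 3649 bp upstream of the second of its 5 annotated starts, and no other gene's region held its summit. Both replicates had it, with a signal of 41.5 and rank 2831 in replicate 1 and a signal of 42.1 and rank 1058 in replicate 2, and their summits were 11 bp apart. Replicate 1 therefore placed it outside its 2241 strongest peaks and replicate 2 inside. Among the 2184 optimal peaks matched in replicate 1, 222 had a rank as low as this or lower, Ih included, and the median rank was 1126.5. In replicate 2 it was 1085 of 2082, with a median of 1116. The next candidates of Ih were at 14275588 to 14275971 (signal 38.2), 350 bp upstream of the first start, at 14278218 to 14278601 (signal 27.3) in the 5′ untranslated region, and at 14288033 to 14288416 (signal 24.9), 88 bp downstream of the second start. The first and second were found in replicate 2 (ranks 4454 and 5390) and the third in replicate 1 (rank 18146).

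**Figure D2:**
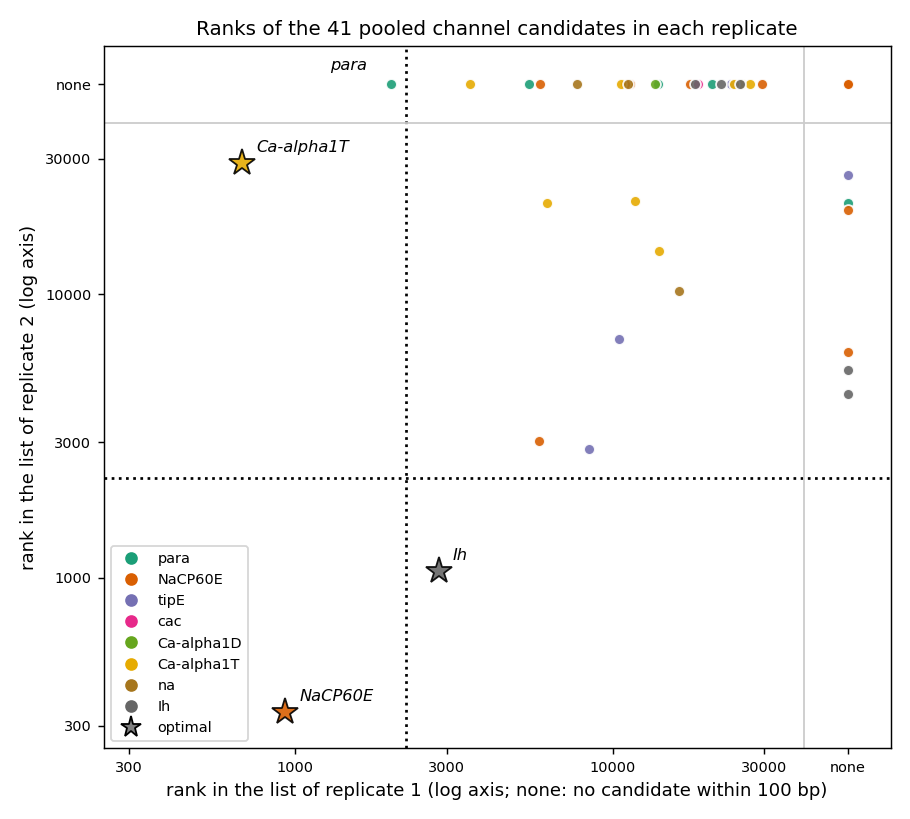
Rank of each of the 41 pooled channel candidates in the list of replicate 1 (horizontal) and replicate 2 (vertical), on logarithmic axes, with candidates that had no summit within 100 bp placed at "none". Stars are the optimal peaks and dotted lines mark rank 2241. NaCP60E lies inside both lines, Ih inside the line of replicate 2 alone, and Ca-alpha1T and the strongest para candidate inside that of replicate 1 alone.

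Taking the 2241 strongest peaks of each replicate in place of the optimal list moved the calls between channel genes. Replicate 1 had such peaks at 3 genes, para, NaCP60E and Ca-alpha1T, where 20.4% of all genes had one. Replicate 2 had them at 2 genes, NaCP60E with 2 peaks and Ih with 1, where the share of all genes was 20.1%. NaCP60E was the single gene called in both replicates. Neither share over all genes takes account of region length, and most channel regions are long. Of the 41 pooled candidates, 32 had a replicate 1 summit within 100 bp (78.0%, exact Clopper-Pearson 95% interval 62.4 to 89.4, counting error only) and 16 had a replicate 2 summit (39.0%, 24.2 to 55.5). Both were present for 10 (24.4%, 12.4 to 40.3) and neither for 3 (7.32%, 1.54 to 19.9). In 9 of the 10 the replicate summits also lay within 100 bp of each other. Over all pooled candidates the shares were 66.9%, 42.7% and 24.5%, with 14.8% for neither, and over the optimal peaks 90.4% had both. Conversely, 13 of 45 replicate 1 candidates and 27 of 43 replicate 2 candidates in the channel regions had no pooled summit within 100 bp. The same was not counted over all candidates of each replicate, so these counts do not set the channel regions apart.

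Candidate density varied widely between the channel genes. Each of the 8 genes had a pooled candidate, as did 80.1% of all genes. The 41 candidates amounted to 11.5 per 100 kb, against 22.4 over the chromosome arms. The values were 12.7 in replicate 1 and 12.1 in replicate 2, against 22.4 for the arms in each list. By gene, the density was 1.70 for cac, 3.37 for Ca-alpha1D, 6.02 for para and 9.64 for Ca-alpha1T. It was 18.7 for na, 20.7 for Ih, 34.2 for NaCP60E and 38.9 for tipE. The tipE value rests on 4 candidates in 10.3 kb, most of them upstream of the gene and within Teh2. In the bin of the longest genes, whose median density was 24.4, 4.05% had a density at or below that of cac, 4.71% at or below that of Ca-alpha1D, 8.86% at or below that of para and 14.4% at or below that of Ca-alpha1T. For Ih and NaCP60E these shares were 41.1% and 69.5%. For tipE and na, in a bin with a median of 29.6, they were 67.6% and 26.8%. The order of cac and para below NaCP60E and tipE held in both replicates. That of na and Ih did not, since na was above Ih in replicate 1 (31.2 against 20.7) and below it in replicate 2 (12.5 against 20.7). The low place of Ca-alpha1D in the pooled list did not hold either. Its density was 13.5 in replicate 1, above para (6.02) and Ca-alpha1T (11.8), and 6.73 in replicate 2, above para (4.82) and below Ca-alpha1T (10.7).

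**Figure D3:**
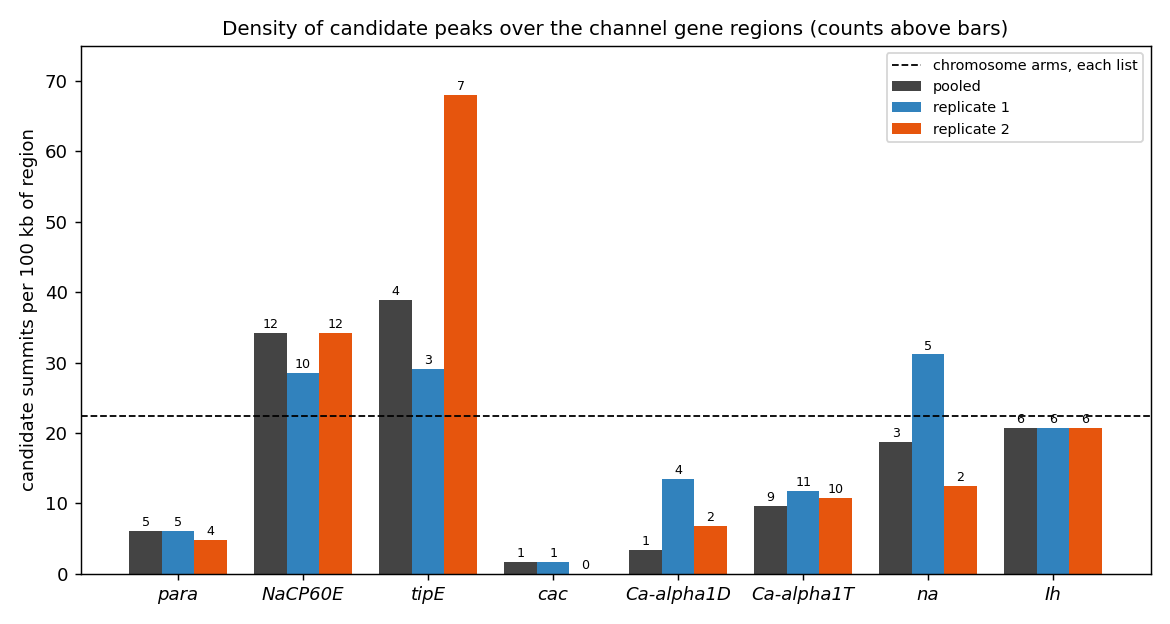
Candidate summits per 100 kb of region for each channel gene in the pooled list and in each replicate, with the number of summits above each bar and the value over the chromosome arms (22.4 in each list) as a dashed line. The bars of cac, Ca-alpha1D, para and Ca-alpha1T stay below the line in all 3 lists, and those of NaCP60E and tipE stay above it.

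Candidates were also counted at the transcript starts of the channel genes. Of their 18 distinct annotated starts, 4 had a pooled summit within 500 bp (22.2%), both of NaCP60E and 2 of the 5 of Ih, while 37.9% of the 24111 starts of all genes had one. For optimal summits it was 1 of 18 (5.56%), the internal NaCP60E start, against 8.96%. With 18 starts, some of them close together as in para, these shares carry little precision. By annotation, 19 of the 41 candidates were intronic (46.3%, exact Clopper-Pearson 95% interval 30.7 to 62.6), 8 were in coding exons (19.5%, 8.82 to 34.9), 6 at promoters and 6 in 3′ untranslated regions (14.6% each, 5.57 to 29.2). Over all pooled candidates these shares were 38.2%, 13.9%, 24.0% and 3.25%. Among those in coding exons, the candidates in Tpc2, Tat and conv lay in exons of genes other than the channel genes. Of the 6 in 3′ untranslated regions, 4 were neighbouring summits of para and another lay in that of NKAIN. Of the 6 promoter candidates, 2 were at starts of NaCP60E, 2 at starts of Ih and 2 at the starts of VhaM9.7-c and Teh3.

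**Figure D4:**
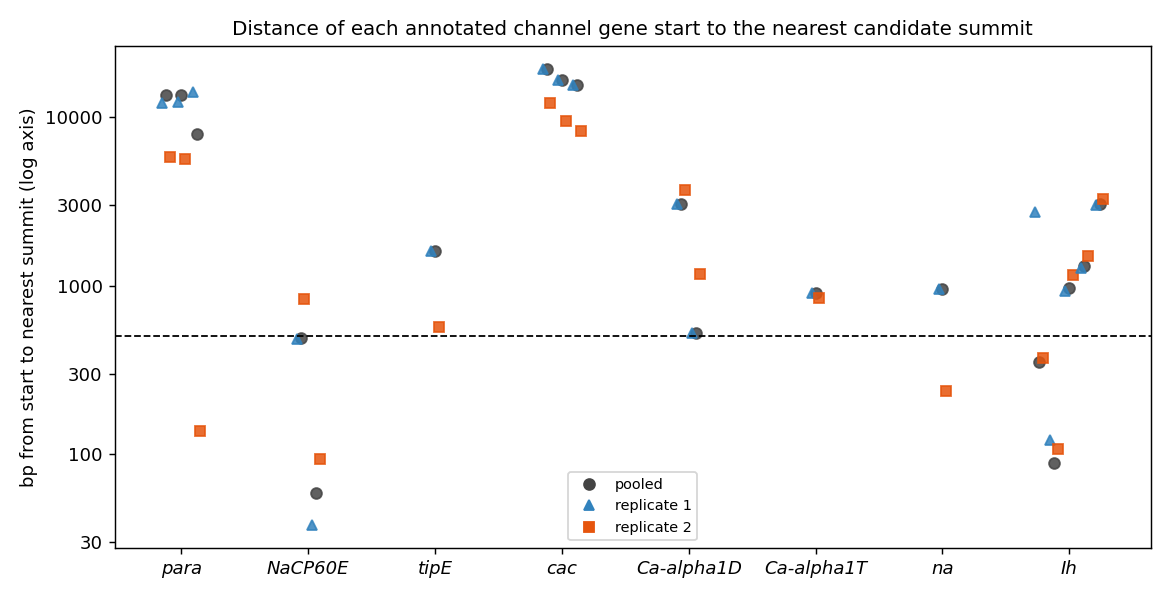
Distance in bp, on a logarithmic axis, from each of the 18 annotated starts of the channel genes to the nearest candidate summit of the pooled list and of each replicate, with 500 bp as a dashed line. The starts of cac lie 8332 bp or more from a summit in all 3 lists, and the first para start has a summit within 137 bp in replicate 2 alone.

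The channel candidates had a median GC content of 47.5% in the 101 bp window (range 15.8 to 67.3), against 42.6% over all pooled candidates and 33.7% over the optimal peaks. At the optimal peaks it was 50.5% for NaCP60E and 57.4% for Ih, and 6.20% and 1.47% of all optimal peaks were at or above these values. For Ca-alpha1T, 0.759% of optimal peaks were at or below its value. TAAT occurred in the window of 24 of the 41 candidates (58.5%) against 60.3% over all pooled candidates. TAATTG occurred in 3, TAATGG in 1, GAGAG, the GAGA factor core, in 5, and the E-box motifs CACGTG and CAGCTG in 1 each. TGATAA, which holds a GATA core, occurred in 0. Over all pooled candidates these shares were 8.87%, 5.16%, 11.7%, 1.31%, 5.27% and 6.65%. Each motif was searched on both strands, TAATTG and TAATGG contain TAAT, and a match says only that the letters occur in the window. The NaCP60E peak held 2 TAAT cores and the Ih peak 0, and the median was 2 over all optimal peaks.

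Around the regions, 1 optimal peak lay just beyond the boundary of 5 kb. It was at 2R 14270097 to 14270480, 841 bp past the upstream end of the Ih region, with signal 99.2, and its summit was 369 bp from the start of Sps1. Replicate 1 had it at rank 1025 and replicate 2 had no candidate within 100 bp. The pooled candidate nearest to the boundary on the inner side was that in Tat, 4633 bp upstream of na. For the genes with no optimal peak, the nearest one outside lay 14.6 kb from the para region (upstream, nearest start that of Arp2, signal 76.6), 15.9 kb from that of cac (downstream, pot, 71.3) and 23.1 kb from that of na (upstream, Dus2, 176). It lay 34.6 kb from that of tipE (downstream, ImpL2, 229) and 89.4 kb from that of Ca-alpha1D (downstream, crp, signal 140).

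Subunits and regulators of these channels were counted in the same way, in 16 genes. Of these, 2 had an optimal peak, where 20.6% of all genes did. Ca-beta, the calcium channel beta subunit, had one at its promoter, 283 bp upstream of its start (2L 11203635 to 11204018, signal 72.8, rank 2036). Mid1, also called Nlf-1, which brings the na channel to the cell surface, had one of signal 81.8 (2R 24739685 to 24740068) that lay 500 bp from the start of lncRNA:CR44828. The other 14 had none. They comprised the tipE relatives Teh1, Teh2, Teh3 and Teh4, the alpha2delta genes stj, stol and Ca-Ma2d, and the leak channel partners unc79 and unc80. They also comprised the RNA-level regulators pum, Adar and mle and the active zone genes Rbp and Rim. Replicate 1 alone had one of its 2241 strongest peaks at 1 of the 16 genes, where 20.4% of all genes had one, and replicate 2 alone at 5, where 20.1% did. None of these shares over all genes takes account of region length, and long regions hold peaks more often. Candidate density ranged from 1.26 per 100 kb at stol to 57.0 at Teh3, whose 4 candidates include 3 shared with tipE. The largest number was 57 at pum, the translational repressor of para, in a region of 176.3 kb, the strongest with a signal of 60.7.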

How the data were processed

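ChIP-seq peak lists were used in the dm6 build. Per the deposited file lists, candidates of each replicate and of both pooled were called against a control alignment, as input for a test of reproducibility (IDR), and the optimal list was derived from them. For the caller, aligner and reproducibility cutoff, names and versions were not given in the sources used here. Each deposited signal value is the caller's value per peak, and the other deposited value used was the summit's position in its peak. Read totals are not in the lists, so depth is unknown. The dm3 lists and the control were not analysed here.

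Annotation was Ensembl release 115 (BDGP6.54, dm6 coordinates, transposable elements left out), and sequence the RefSeq copy of the assembly. Of all peaks, 0 ended past a chromosome end. Coordinates count from 1. Summits were assigned by position (Python 3.11.15, pandas 2.3.3). The code for regions and nearest starts was checked on simulated summits, while that for replicate matching and annotation classes was not. A summit within 500 bp of a start was classed as promoter, then by the first of 5′ UTR, coding sequence, 3′ UTR, exon of a non-coding gene and intron, or else as intergenic. A replicate summit within 100 bp matched a pooled one. Intervals are exact Clopper-Pearson at 95% and cover counting error only.

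Described in full were each optimal peak and the 3 strongest other pooled candidates per gene. Other genes were named for a start nearest to, or overlap with, such a peak, or from the list of subunits and regulators. The neighbours of the regions and a few weaker or replicate candidates were named after their values were seen. Of 17 listed names, CG4587 and stol were 1 gene, and Nlf-1 matched Mid1, both by RefSeq synonyms. The members and lists were chosen with earlier results of these data known. Alternatives covered region size, list, threshold, assignment, matching, start distance, motif window and each replicate alone.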

Additional observations from a re-analysis of the deposited data

How the results depend on the processing

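The number of channel genes with an optimal summit stayed between 2 and 3, and that of their optimal summits between 2 and 4, with regions of 1, 2 or 10 kb upstream or the gene body alone, with assignment to the nearest start, with any overlap and with each replicate alone. It was 1 in both cases for optimal peaks above the median signal, which left NaCP60E. For these counts, each replicate alone meant its 2241 strongest peaks, and the genes changed. Replicate 1 gave para, NaCP60E and Ca-alpha1T, and replicate 2 gave NaCP60E and Ih. With the gene body alone, Ca-alpha1T dropped out. Candidate density, 11.5 per 100 kb, was 10.8 with 1 kb, 10.9 with 2 kb and 12.1 with 10 kb upstream, 10.5 in gene bodies, 12.2 without Ca-alpha1T, and 12.1 to 12.7 with 1 replicate alone, each below the 22.4 of the arms. Matching by 50 bp, 250 bp or overlap left the shares with a replicate candidate within their intervals, from 14.6% to 36.6% for both replicates. The share at a start rose from 14.6% to 34.1% within 1000 bp. Motif shares follow the width of the window by construction: TAAT was at 31.7% within 25 bp and 87.8% within 150 bp, TAATGG at 0% and 14.6%, CACGTG at 0% within 25 bp, and GAGAG at 31.7% within 100 bp and 41.5% within 150 bp. For the strongest peaks of 1 replicate, 3 in each, they were 0% to 66.7% for TAAT, 33.3% in each for GAGAG, 0% to 33.3% for TGATAA and 0% in each for the other 4 motifs, which tells little. The cause of these differences was not tested. Precision is limited by the 41 candidates and 2 replicates, and depth is unknown.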
